A study of Homo sapiens with 6 samples.

Results

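The genes of the voltage-gated sodium channels were examined in total RNA of a human neuroblastoma cell line. The set held 8 of the 60651 genes in each library's table, namely the alpha subunit genes *SCN1A*, *SCN2A*, *SCN3A*, *SCN7A*, *SCN8A* and *SCN9A* and the beta subunit genes *SCN2B* and *SCN3B*. Genes were matched by symbol, and the set was chosen on the measured rise of *SCN2A* in the Tet-labelled libraries, so for these genes the contrast between the groups is a description, and its edgeR values are given without being read as a test. Of the 8 genes, 6 passed the filter on low counts, as did 22443 genes in all, while *SCN7A* and *SCN2B* did not.

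The 6 libraries fell into 3 labelled EtOH, the ethanol vehicle, and 3 labelled Tet, which per the labels had tetracycline in the growth medium for 5 days. Per the protocol text, all libraries came from cells with the same stable construct, grown as single clones under selection with G418 and blasticidin. The labels did not name a single model. The titles gave IMR575, a tag spoke of a knockdown, and the protocol field gave SK-N-SH with *MYCN* under tetracycline control. The study's methods described such a system in SK-N-AS cells, kept in G418 and blasticidin. They also described an inducible shRNA against *MYCN* in IMR-5/75, kept in zeocin and blasticidin. The selection in the protocol text is thus that of the SK-N-AS model, while the titles name the other. *MYCN*, the targeted oncogene, was at 158, 256 and 156 CPM (TMM-normalised counts, scaled to a common library total) in the EtOH-labelled libraries and at 197, 200 and 145 CPM in the Tet-labelled ones. The ranges of the groups overlapped (−0.07 ± 0.23 SE as log2 fold change, edgeR adjusted p = 0.956), so *MYCN* transcript showed no difference past the threshold to match the label. For both models, the study's methods report a check of MYCN protein by western blot, and for SK-N-AS also of RNA by qRT-PCR. The counts here do not measure protein. Every direction below refers to the label of the libraries only.

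Voltage-gated sodium channels open when a membrane depolarises and let sodium ions in, which produces the upstroke of the action potential. Each channel has a large pore-forming alpha subunit, which carries the voltage sensor, and smaller beta subunits that tune gating and help place the channel in the membrane. Excitable cells of the sympathetic lineage, from which neuroblastoma arises, are known to carry such channels. Several alpha subunit genes lie side by side on chromosome 2.

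The libraries held between 27933378 and 40498065 counts, so that 3 counts correspond to between 0.0741 and 0.107 CPM. Across the table, 33 genes were called higher and 20 lower in the Tet-labelled libraries (edgeR quasi-likelihood test, adjusted p under 0.05). EtOH replicate 2 stood apart: without it, 361 genes were called higher and 331 lower. Without any other library, at most 1 gene was called in each direction. Of 7 noradrenergic neuroblastoma markers, 5 reached a mean of 1 CPM, among them *HAND2* and *GATA3*, whereas *DBH* and *TH*, which encode enzymes of catecholamine synthesis, were at or near 0. Of 6 mesenchymal neuroblastoma markers, 5 reached that level. The Schwann and glial list reached it for 1 of 5 genes, the muscle list for 2 of 4 (*TTN* and *ACTN2*, with *MYH7* and *MYOD1* at 0), and the endothelial and immune lists for none, and no marker of these 6 lists was called. Nothing in the labels says that replicates were separate cultures. The study's methods give 3 independent biological replicates as the rule for in vitro work, unless noted otherwise. The labels do not tie these libraries to that rule, so p-values measure the spread between these libraries, which may be technical. In bulk RNA, fewer cells of a type and less RNA per cell cannot be told apart.

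The genes span 3 chromosomes (coordinates on GRCh38, counted from 1, as the tables give them). *SCN3A* lies at chr2:165087526-165204050 on the minus strand and *SCN2A* at chr2:165194993-165392310 on the plus strand, head to head, and the models overlap by 9058 bases without sharing an exon base. *SCN1A* (chr2:165984641-166149214), *SCN9A* (chr2:166195185-166376001) and *SCN7A* (chr2:166403573-166611482) follow on the minus strand. *SCN8A* lies at chr12:51590266-51812864 on the plus strand, and *SCN2B* (chr11:118162806-118176639) and *SCN3B* (chr11:123629187-123655244) lie apart on the minus strand of chromosome 11. Exon bases that also belong to another gene made up 0.996% of *SCN2A*, 8.43% of *SCN3A* (both with the non-coding gene ENSG00000236283), 8.65% of *SCN1A*, 11.4% of *SCN9A* (both with *SCN1A-AS1*) and 5.55% of *SCN8A* (with ENSG00000260122). Apart from that of *SCN2A*, these shared bases lie antisense. Since the strand was not used in counting, reads from a gene and its antisense partner cannot be told apart there.

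RefSeq (GRCh38.p14) held promoter windows for 6 of the 8 genes, 9 windows in all, and *SCN3A* and *SCN3B* had no entry. The 4 windows below, each the 180 bases from 250 to 71 before a transcript start, are shown because they span the range of CG content among these genes, from both *SCN2A* starts to the starts of *SCN9A* and *SCN8A*. Capitals mark CG dinucleotides, and each sequence reads 5′ to 3′ on the strand of its gene.
SCN2A, chr2:165239164-165239343, plus strand: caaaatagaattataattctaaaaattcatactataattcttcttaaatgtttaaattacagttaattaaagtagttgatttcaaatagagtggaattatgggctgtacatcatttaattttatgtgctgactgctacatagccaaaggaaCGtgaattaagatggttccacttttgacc
SCN2A, chr2:165240810-165240989, plus strand: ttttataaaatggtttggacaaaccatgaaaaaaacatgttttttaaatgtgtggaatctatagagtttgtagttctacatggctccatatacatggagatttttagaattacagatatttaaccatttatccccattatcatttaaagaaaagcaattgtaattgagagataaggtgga
SCN9A, chr2:166376015-166376194, minus strand: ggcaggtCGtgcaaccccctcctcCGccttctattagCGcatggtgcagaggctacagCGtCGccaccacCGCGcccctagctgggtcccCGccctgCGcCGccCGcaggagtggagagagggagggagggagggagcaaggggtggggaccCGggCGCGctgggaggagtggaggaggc
SCN8A, chr12:51590983-51591162, plus strand: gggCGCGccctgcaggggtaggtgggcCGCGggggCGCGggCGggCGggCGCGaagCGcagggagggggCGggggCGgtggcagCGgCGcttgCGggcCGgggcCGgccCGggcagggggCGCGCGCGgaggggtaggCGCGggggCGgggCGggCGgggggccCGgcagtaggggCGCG

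Both *SCN2A* windows were AT-rich, with 27.8% and 28.3% G+C and with 1 and 0 CG, where the median over 35116 RefSeq windows of the same length was 7. Their starts lie 44.4 and 46.1 kb inside the *SCN2A* model of the tables, so the reads counted for the gene need not all come from these starts. The *SCN9A* window held 14 CG at 72.2% G+C, more CG than 69.99% of windows. The *SCN8A* window held 31 CG at 88.9% G+C, more than 98.8% of windows. Low CG content was not particular to *SCN2A*: both *SCN1A* windows held 1 CG, at 36.1% and 42.8% G+C, the *SCN2B* window held 0, and the *SCN7A* windows held 0 and 8. The letters CACGTG, the E-box bound by MYC family proteins and identical on both strands, occurred in 3.80% of all windows and in none of the 9 windows of these genes.

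Among the alpha subunit genes, *SCN2A* and *SCN3A* were higher in every library labelled Tet than in any labelled EtOH, and the ranges of *SCN9A*, *SCN8A* and *SCN1A* overlapped. *SCN2A* encodes Nav1.2, a channel of developing axons and of the axon initial segment. It was at 7.67, 6.67 and 8.20 CPM in the EtOH-labelled libraries and at 18.9, 19.6 and 19.6 CPM in the Tet-labelled ones. The lowest Tet value lay far above the highest EtOH value, and the means were 7.51 ± 0.775 and 19.4 ± 0.430 CPM (SD, n = 3 each). This was a 2.57-fold difference, or 1.36 ± 0.18 (SE) as a log2 fold change.

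*SCN3A* encodes Nav1.3, a channel best known from the embryonic nervous system. It was at 32.8, 25.3 and 30.6 CPM in the EtOH-labelled libraries and at 61.7, 57.7 and 55.0 CPM in the Tet-labelled ones. The groups were apart by more than 20 CPM, and the log2 fold change was 0.98 ± 0.16 (SE), or 1.97-fold. The ratio of *SCN2A* to *SCN3A* CPM was 0.234, 0.264 and 0.268 in the EtOH-labelled libraries and 0.306, 0.340 and 0.356 in the Tet-labelled ones. *SCN2A* therefore differed between the groups by more than its head-to-head neighbour did in every pair of libraries across the groups.

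*SCN9A* encodes Nav1.7, the channel of sensory and sympathetic neurons. It was at 46.2, 89.7 and 48.5 CPM in the EtOH-labelled libraries and at 77.5, 106 and 72.3 CPM in the Tet-labelled ones. EtOH replicate 2 lay above Tet replicates 1 and 3, so the groups overlapped, and the log2 fold change was 0.47 ± 0.28 (SE). Without EtOH replicate 2 it was 0.85, at an edgeR adjusted p of 0.0451, inside the threshold. Leaving out any other library gave an edgeR adjusted p between 0.661 and 0.966.

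*SCN8A* encodes Nav1.6, the main channel of mature nodes and initial segments. It was at 70.4, 45.2 and 66.1 CPM in the EtOH-labelled libraries and at 66.9, 63.4 and 66.7 CPM in the Tet-labelled ones. All values but that of EtOH replicate 2 lay within 10 CPM of each other, and the log2 fold change was 0.12 ± 0.19 (SE), or −0.05 without that library. Against *SCN8A*, whose groups overlapped, the ratio of *SCN2A* was 0.109, 0.148 and 0.124 in the EtOH-labelled libraries and 0.282, 0.309 and 0.294 in the Tet-labelled ones.

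*SCN1A*, which encodes Nav1.1 of inhibitory neurons, was scarce. It was at 0.809, 1.66 and 0.496 CPM in the EtOH-labelled libraries and at 0.638, 1.58 and 1.26 CPM in the Tet-labelled ones. Its mean was 1.07 CPM, and the antisense gene *SCN1A-AS1*, which shares 8.65% of its exon bases, had 18.4 CPM. Since strand was not used, part of the *SCN1A* counts may be antisense reads, which was not tested. The groups overlapped over most of their range, and the log2 fold change was 0.24 ± 0.53 (SE), or 0.83 without EtOH replicate 2. *SCN7A*, which encodes the sodium-sensing channel Nax, had 1, 1 and 0 counts in the EtOH-labelled libraries and 1, 6 and 7 in the Tet-labelled ones, which was too few to test.

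Of the beta subunit genes, *SCN3B* was expressed and *SCN2B* was not detected. *SCN3B* was at 34.5, 21.7 and 33.7 CPM in the EtOH-labelled libraries and at 47.0, 57.0 and 43.7 CPM in the Tet-labelled ones. Every Tet value lay above every EtOH value, and the log2 fold change was 0.71 ± 0.21 (SE), or 0.54 without EtOH replicate 2. *SCN2B* had 0 counts in all 6 libraries, which allows up to 0.0741 to 0.107 CPM in a single library and 0.0152 CPM over all libraries, for counting error only.

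**Figure D1:**
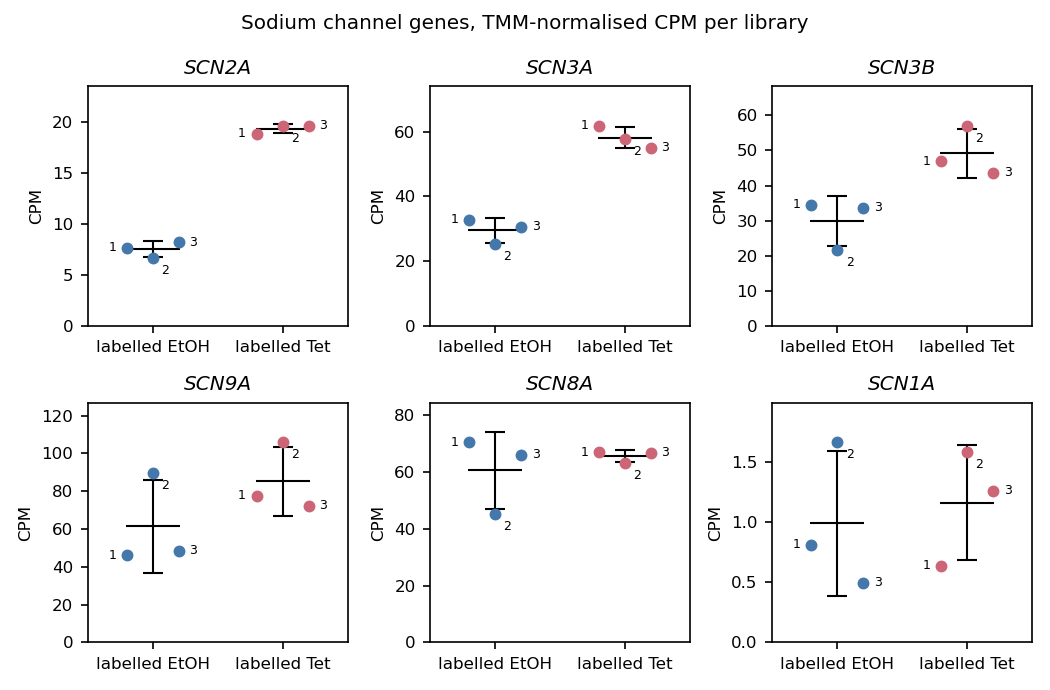
TMM-normalised CPM of the 6 sodium channel genes that passed the filter, by label (points are libraries, numbered by replicate; lines and bars are the mean and SD, n = 3). SCN2A, SCN3A and SCN3B do not overlap between the labels, and EtOH replicate 2 is the highest EtOH library for SCN9A and SCN1A and the lowest for the other 4 genes.

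Of the 6 genes tested, 1 (*SCN2A*) was called higher in the Tet-labelled libraries, against 0.147% of all genes tested, and 0 were called lower, against 0.0891%. Groups without overlap, higher in the Tet-labelled libraries, were found for 3 genes (*SCN2A*, *SCN3A* and *SCN3B*), against 9.2% of all genes, and lower for 0, against 8.28%. The genes were chosen with this contrast in view, so nothing is read from these counts. The edgeR adjusted p of *SCN2A* was 0.0368, rank 27 by p among 53 called genes, where the last called gene stood at 0.0464 and the next gene, not called, at 0.0529. *SCN3A* stood just outside at 0.0635. Without EtOH replicate 2 these values were 0.0102 for *SCN2A*, with a log2 fold change of 1.29, and 0.0169 for *SCN3A*, with 0.88. Leaving out any of the other 5 libraries moved the adjusted p of *SCN2A* to between 0.158 and 0.247, with a log2 fold change between 1.36 and 1.41. All 6 log2 fold changes were above 0, with a median of 0.59 against −0.0061 over all genes tested.

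EtOH replicate 2 and Tet replicate 2 were compared with the mean of the other libraries of their label on the log2 scale. In EtOH replicate 2, *SCN1A* was higher by 1.31 and *SCN9A* by 0.92, while *SCN3B*, *SCN8A*, *SCN3A* and *SCN2A* differed by −0.65, −0.59, −0.32 and −0.25. In Tet replicate 2, *SCN1A* was higher by 0.77, *SCN9A* by 0.50 and *SCN3B* by 0.33, and the other 3 genes were within 0.1. Of the mesenchymal markers, *SNAI2*, *YAP1*, *PRRX1* and *FN1* stood 2.01, 1.50, 1.16 and 0.35 higher in EtOH replicate 2, while *CD44* differed by −0.27. In Tet replicate 2, they stood 1.73, 0.61, 0.63 and 0.31 higher, and *CD44* 0.29 higher. *REST*, the repressor of neuronal genes, stood 0.86 and 0.33 higher. The summed level of the 6 mesenchymal markers ranged from 132 to 254 CPM in the EtOH-labelled libraries and from 116 to 171 CPM in the Tet-labelled ones, with *FOSL1* at or near 0. Some markers were apart between the labels, and none of these was called by edgeR. Of the 5 noradrenergic markers with a mean of at least 1 CPM, 3 were above every EtOH library in every Tet library. This held for 9.2% of all genes tested. Among the 3 were *ISL1* (log2 fold change 1.18 ± 0.27, edgeR adjusted p = 0.142) and *GATA3* (0.36 ± 0.14, adjusted p = 0.401). The summed level of all 7 noradrenergic markers was 556 to 655 CPM for EtOH and 654 to 771 CPM for Tet. Of the 5 mesenchymal markers at that mean, *PRRX1* (−1.02 ± 0.34, edgeR adjusted p = 0.317) and *CD44* (−0.39 ± 0.24, adjusted p = 0.618) were below every EtOH library in every Tet library. The same held for 8.28% of all genes tested. The part of these markers in the sodium channel values was not tested.

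To compare levels between genes, counts were divided by exon length and scaled to a common total (TPM, a level per length). The highest mean over 6 libraries was that of *SCN9A* at 14.4 TPM (8.94 to 20.7), followed by *SCN3B* at 10.7 (6.40 to 15.5), *SCN8A* at 10.6 (8.27 to 11.8) and *SCN3A* at 10.3 TPM (6.47 to 15.0). *SCN2A* followed at 1.50 TPM (0.819 to 2.22), *SCN1A* at 0.155 and *SCN7A* at 0.0201 TPM, and *SCN2B* was at 0. Neighbours in the order of mean log2 TPM were compared within each library by an exact two-sided sign-flip permutation test on log2(TPM + 0.01), where 6 libraries allow no p under 0.0312, and p-values were adjusted over 6 pairs.

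Over all 6 libraries together, the 4 most abundant genes could not be set in order. *SCN9A* was above *SCN8A* in 4 of 6 libraries, with a mean log2 ratio of 0.38 ± 0.63 (SD; exact permutation p = 0.219, adjusted 0.328). *SCN8A* was above *SCN3B* in 3 of 6, with 0.03 ± 0.36 (exact permutation p = 0.812, adjusted 0.812), and *SCN3B* was above *SCN3A* in 3 of 6, with 0.08 ± 0.22 (exact permutation p = 0.406, adjusted 0.487). The order of *SCN8A* and *SCN3B* split by label. *SCN8A* was above in every EtOH-labelled library (11.8, 8.27 and 11.1 against 9.28, 6.40 and 9.15 TPM). It was below in every Tet-labelled one (11.7, 10.7 and 10.1 against 13.2, 15.5 and 10.6 TPM). *SCN8A* and *SCN3A* split by label in the same way. The test pooled the labels, so it cannot show an order that differs between them. Below these 4 genes lay a step that every library showed. *SCN3A* was above *SCN2A* in 6 of 6 libraries by 7.10-fold (exact permutation p = 0.0312, the smallest possible, adjusted 0.0625). *SCN2A* was above *SCN1A* in 6 of 6 by 9.06-fold, and *SCN1A* was above *SCN7A* in 6 of 6, at the same p. With canonical transcript lengths, the folds were 3.29 for *SCN3A* over *SCN2A* and 15.0 for *SCN2A* over *SCN1A*. No pair passed the adjustment at 0.05.

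The share of *SCN2A* in the summed TPM of the 6 alpha subunit genes was 2.93%, 2.35% and 3.22% in the EtOH-labelled libraries and 4.93%, 4.67% and 5.43% in the Tet-labelled ones. It was thus the smallest share of the 4 genes that make up nearly all of the sum in every library. That of *SCN3A* was 23.2% ± 4.05 and 31.4% ± 2.53 (SD, n = 3 each), that of *SCN8A* 34.2% ± 9.07 and 25.4% ± 2.61, and that of *SCN9A* 39.3% ± 13.3 and 37.7% ± 5.05, for EtOH and Tet in that order. The sum itself was 31.0 ± 3.35 TPM in the EtOH-labelled libraries and 42.9 ± 5.67 TPM in the Tet-labelled ones. The exon length of *SCN2A* in the tables, 24087 bases, is far longer than the 8776 bases of its canonical transcript. With canonical lengths, a choice added after the data were seen, the *SCN2A* share was 5.48% and 9.57%.

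**Figure D2:**
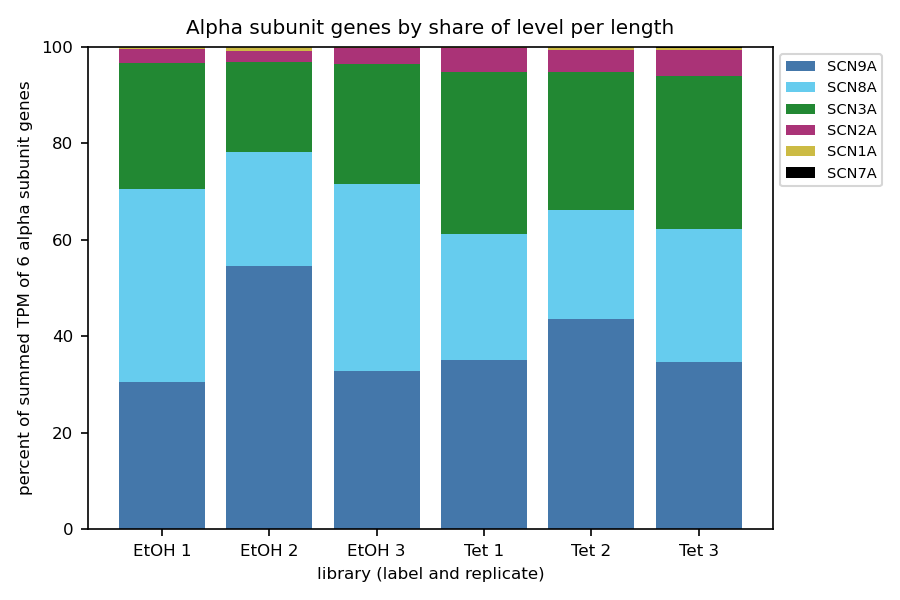
Percent of the summed TPM of 6 alpha subunit genes in each library, stacked to 100%. SCN9A, SCN8A and SCN3A make up most of each bar, the SCN2A segment is larger in the 3 libraries labelled Tet (4.67% to 5.43%) than in those labelled EtOH (2.35% to 3.22%), and SCN9A is largest in EtOH replicate 2.

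Outside the set, other genes of the family were looked up, and none that passed the filter was called. *SCN11A*, which encodes Nav1.9 of sensory neurons, was at 5.61, 3.17 and 6.28 CPM in the EtOH-labelled libraries and at 7.59, 7.78 and 7.52 CPM in the Tet-labelled ones. Its groups did not overlap, and its log2 fold change, 0.60 ± 0.28 (SE), missed the threshold (edgeR adjusted p = 0.503). *SCN4A*, the skeletal muscle gene, had 0 counts in all libraries, and *SCN10A* and *SCN4B* had 1 count each in all.

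The other genes of the chromosome 2 cluster were taken by position alone, from 1 Mb before *SCN3A* to 1 Mb after *SCN7A* (chr2:164087526-167611482). Of 29 genes there beside the sodium channels, 12 passed the filter, 0 were called higher and 1 was called lower. That gene was *GRB14*, an adaptor that binds the insulin receptor, at chr2:164492417-164621482 on the minus strand. It was at 7.31, 6.46 and 7.24 CPM in the EtOH-labelled libraries and at 2.09, 2.48 and 1.56 CPM in the Tet-labelled ones. The groups were far apart, and they gave a log2 fold change of −1.78 with an SE of 0.26 (edgeR adjusted p = 0.0464). The call held without EtOH replicate 2 (adjusted p = 0.0129) and was lost without any of the other 5 libraries (adjusted p between 0.157 and 0.327) and with RLE scaling (adjusted p = 0.0505), with the log2 fold change between −1.94 and −1.61.

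Between *GRB14* and *SCN3A*, the actin-binding gene *COBLL1* had a log2 fold change of −0.21 ± 0.19 (adjusted p = 0.772) and ENSG00000277998 one of −0.24 ± 0.42 (adjusted p = 0.906). ENSG00000236283 runs through *SCN3A* on the other strand and shares 975 exon bases with *SCN3A* and 240 with *SCN2A*. Strand was not used in counting, so reads of *SCN3A* from the shared bases were also counted in part for this gene. How far its values reflect reads of the 2 channel genes was not tested. ENSG00000236283 was at 1.62, 1.77 and 2.08 CPM in the EtOH-labelled libraries and at 3.33, 2.99 and 2.87 CPM in the Tet-labelled ones. Its groups did not overlap, and its log2 fold change, 0.75 ± 0.27 (SE), missed the threshold (edgeR adjusted p = 0.365).

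Between *SCN2A* and *SCN1A* lie *CSRNP3*, *GALNT3*, *TTC21B* and 3 non-coding genes that passed the filter. *CSRNP3*, the nearest tested gene after *SCN2A* (chr2:165469647-165689407), was at 92.3, 100.3 and 96.6 CPM in the EtOH-labelled libraries and at 92.3, 86.5 and 75.4 CPM in the Tet-labelled ones. Its groups touched at 92.3 CPM, and its log2 fold change was −0.19 ± 0.14 (SE, adjusted p = 0.723). *GALNT3*, a glycosyltransferase gene, had a log2 fold change of 1.01 ± 0.37 at a low level, 0.911 and 1.83 CPM on average (adjusted p = 0.369). *TTC21B*, which encodes a protein of intraflagellar transport, had −0.32 ± 0.17 (adjusted p = 0.554), and its antisense gene *TTC21B-AS1* had −0.12 ± 0.22 (adjusted p = 0.912). ENSG00000229195 had 1.22 ± 0.50 (adjusted p = 0.426) and ENSG00000232411 −0.21 ± 0.60 (adjusted p = 0.951), each below 1 CPM.

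*SCN1A-AS1*, antisense to *SCN1A* and *SCN9A*, was at 14.0, 18.2 and 14.5 CPM in the EtOH-labelled libraries and at 18.8, 24.9 and 19.9 CPM in the Tet-labelled ones. Its groups did not overlap, and the log2 fold change, 0.44 ± 0.20 (SE), missed the threshold (edgeR adjusted p = 0.469). The ratio of *SCN9A* to *SCN1A-AS1* CPM was 3.29, 4.94 and 3.35 in the EtOH-labelled libraries and 4.13, 4.25 and 3.64 in the Tet-labelled ones. ENSG00000228222, the farthest gene tested, had −0.02 ± 0.38 (adjusted p = 0.993). The median log2 fold change of the 12 neighbours was −0.15. The groups did not overlap for 4 that were higher and 2 that were lower, where 9.2% and 8.28% of all genes tested did so.

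**Figure D3:**
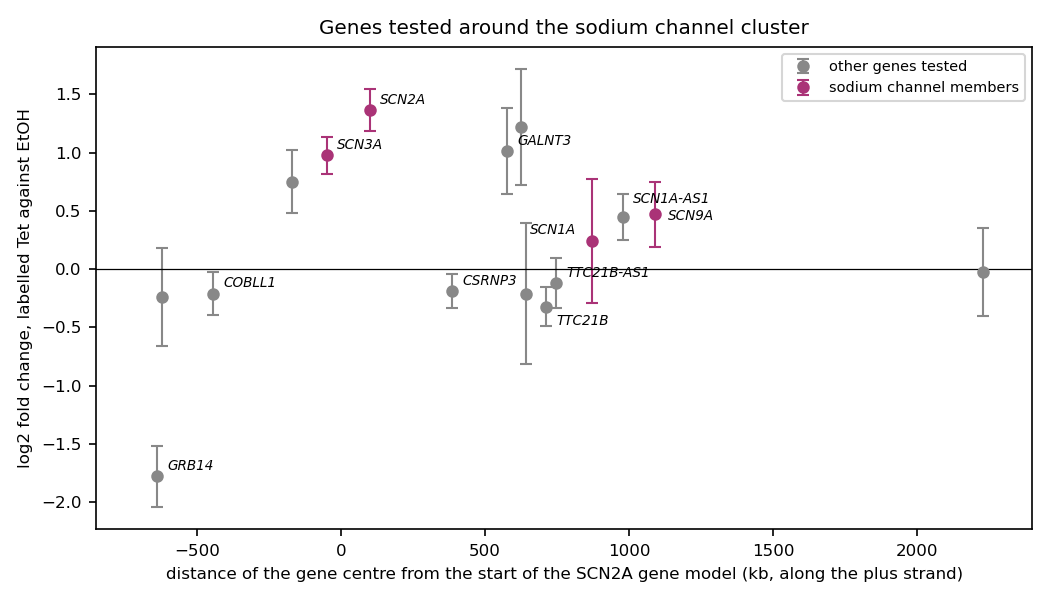
Log2 fold change (libraries labelled Tet against EtOH; bars are SE) of the tested genes around the chromosome 2 sodium channel cluster, by distance of the gene centre from the start of the SCN2A model in kb; non-coding genes without a symbol are unnamed. SCN2A (1.36) and SCN3A (0.98) lie above 0 side by side, CSRNP3 and TTC21B lie just below 0, and GRB14 is at −1.78.

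Channel partners anchor sodium channels at the axon initial segment, bind them or share the site with them. Of 23 listed genes, 21 passed the filter and none was called by edgeR in either direction, while 6 were higher and 1 lower at an unadjusted p under 0.05, against 5.83% and 4.94% of all genes tested. DESeq2 called 3, and across the whole table it called 282 genes higher and 203 lower. Their median log2 fold change was 0.38, against −0.0061 over all genes, and the groups did not overlap for 7 that were higher and 2 that were lower, against 9.2% and 8.28% of all genes. Among the most abundant, the calmodulin gene *CALM2* and the ankyrin gene *ANK2* had log2 fold changes of 0.38 ± 0.35 and 0.46 ± 0.18 (adjusted p = 0.784 and 0.409).

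Other partner genes are named after their values were seen. *ANK3*, which encodes ankyrin-G, the scaffold that holds sodium channels at the initial segment, was at 92.9, 49.1 and 81.4 CPM in the EtOH-labelled libraries and at 185, 167 and 190 CPM in the Tet-labelled ones. Its groups were apart, with a log2 fold change of 1.28 with an SE of 0.23 (edgeR adjusted p = 0.0812, or 0.00922 without EtOH replicate 2). Leaving out any other library gave *ANK3* an edgeR adjusted p between 0.153 and 0.353. *FGF12*, an intracellular channel-binding factor, had 0.61 ± 0.16 (adjusted p = 0.193), and the adhesion gene *L1CAM* had 1.16 ± 0.34 (adjusted p = 0.249). *KCNQ3*, which encodes a potassium channel subunit of the same site, was at 37.6, 47.8 and 34.1 CPM in the EtOH-labelled libraries and at 23.0, 24.2 and 20.3 CPM in the Tet-labelled ones. It had the opposite direction without overlap, with a log2 fold change of −0.82 ± 0.18 (adjusted p = 0.135).

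Sodium transport genes, which leak, pump or exchange sodium, formed a list of 23, of which 16 passed the filter. None was called by edgeR, and 4 were higher and 0 lower at an unadjusted p under 0.05, against 5.83% and 4.94% of all genes tested. DESeq2 called 2, beside its 282 and 203 across the table. The median was −0.01, near that of all genes. The groups did not overlap for 5 that were higher and 0 that were lower, against 9.2% and 8.28% of all genes tested. Among the most abundant, the sodium pump beta subunit gene *ATP1B1* had a log2 fold change of 0.58 ± 0.16 (edgeR adjusted p = 0.210) and the cotransporter gene *SLC12A2* −0.17 ± 0.19 (adjusted p = 0.831). Of the others, named after their values were seen, the sodium-calcium exchanger gene *SLC8A3* had 1.34 ± 0.32 (adjusted p = 0.165) and *NALF1*, a subunit gene of the sodium leak channel, 0.61 ± 0.19 (adjusted p = 0.276).

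Regulators known for neuronal channel genes, namely the REST repressor complex, neuronal splicing and RNA-binding factors and some transcription factors, made up 22 genes, of which 20 passed the filter. None was called by edgeR, and 3 were higher and 1 lower at an unadjusted p under 0.05, against 5.83% and 4.94% of all genes tested. DESeq2 called 3, beside its 282 and 203 across the table. The median was 0.18, and the groups did not overlap for 3 that were higher and 1 that was lower, against 9.2% and 8.28% of all genes tested. *REST* itself was at 87.4, 162 and 91.4 CPM in the EtOH-labelled libraries and at 106, 135 and 109 CPM in the Tet-labelled ones. EtOH replicate 2 was above and the other EtOH libraries below every Tet library, with a log2 fold change of 0.04 ± 0.25 (adjusted p = 0.981), which was below 0 without EtOH replicate 1, EtOH replicate 3 or Tet replicate 2. The 3 most abundant genes were *HDAC2* (0.32 ± 0.17, adjusted p = 0.567), *ELAVL4* (0.57 ± 0.16, adjusted p = 0.221) and *PTBP2* (0.20 ± 0.23, adjusted p = 0.844).

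Further regulators are named after their values were seen. *CELF4*, which encodes an RNA-binding protein known to bind sodium channel transcripts, was at 23.0, 20.0 and 29.2 CPM in the EtOH-labelled libraries and at 46.3, 57.0 and 64.2 CPM in the Tet-labelled ones. Its groups were apart, with a log2 fold change of 1.21 with an SE of 0.20 (edgeR adjusted p = 0.0635). The neuronal RNA-binding gene *ELAVL3* had 1.21 ± 0.22 (adjusted p = 0.0818) and the sensory neuron factor gene *POU4F1* −1.25 ± 0.30 (adjusted p = 0.158). Without EtOH replicate 2 these 3 genes were called, at adjusted p = 0.0190, 0.0166 and 0.0370, and the counts called were 1 in the partner list, 1 in the transport list and 3 among regulators, while 361 genes were called higher and 331 lower across the table. Leaving out any other library, none of these 3 genes was called (edgeR adjusted p at least 0.229, 0.258 and 0.373, in that order).

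**Figure D4:**
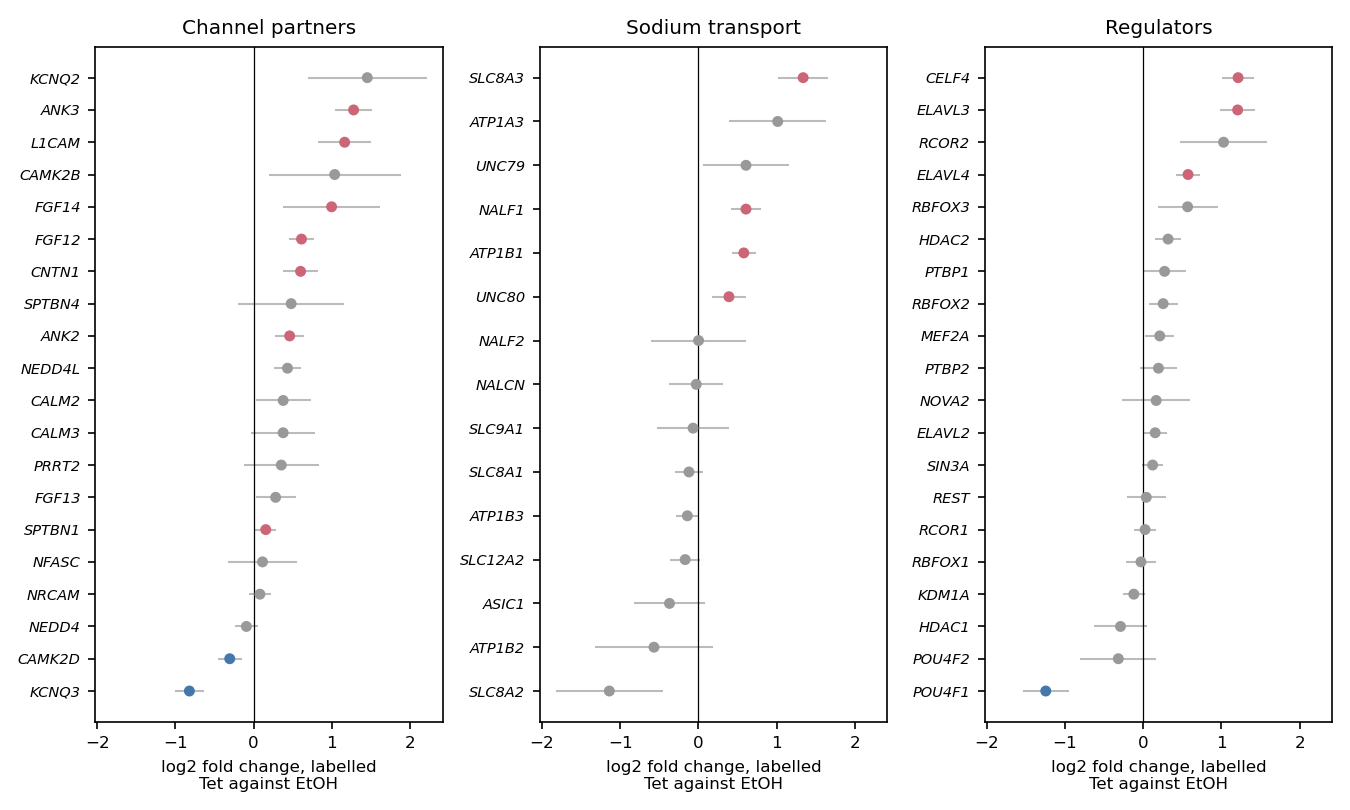
Log2 fold change (libraries labelled Tet against EtOH; bars are SE) of tested genes of the 3 lists. Red points are genes with every Tet library above every EtOH library, blue points the reverse and grey points genes whose groups overlap; ANK3 (1.28), SLC8A3 (1.34) and CELF4 (1.21) lie to the right, KCNQ3 (−0.82) and POU4F1 (−1.25) to the left.

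The genes with the pattern most like that of *SCN2A* were found by Pearson's r of log2 CPM over 6 libraries among 16718 genes with a mean of at least 1 CPM. Among the 5 highest were ENSG00000229855 (r = 0.9995), *ATP8A2* (0.998), *ZNF84* (0.997) and *TIMP2* (0.997). All share these 6 libraries, their depth and a gap between the labels with *SCN2A*. *ATP8A2*, a phospholipid flippase gene, was at 4.02, 3.35 and 3.93 CPM in the EtOH-labelled libraries and at 8.51, 8.74 and 8.56 CPM in the Tet-labelled ones, a gap as even as that of *SCN2A*. Within the set, r with *SCN2A* was 0.984 for *SCN3A* (rank 45), 0.885 for *SCN3B* (rank 618), 0.511 for *SCN9A*, 0.435 for *SCN8A* and 0.150 for *SCN1A*.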

How the data were processed

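RNA was depleted of ribosomal RNA and sequenced as stranded, paired-end libraries. The deposited values are estimated counts per gene, 1 table a library. The authors trimmed and aligned the reads (STAR, 2.7.1a in the submitters' processing notes, on GRCh38), and the headers give featureCounts 1.6.4 (1.5.1 in the notes) on uniquely placed read pairs over exons. A pair over several genes was divided among them and strand was not used, which left 12.3% to 14.7% of genes with fractional values. This splits reads between overlapping genes.

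The planned test assumed whole counts, so values were rounded. Genes were kept by filterByExpr, scaled by TMM and compared with edgeR 4.0.16 (quasi-likelihood F test, R 4.3.3), with Benjamini-Hochberg adjustment over all genes tested and a threshold of 0.05. The SE is the log2 fold change divided by the square root of F. TPM used the exon length in the tables and unrounded counts. The test was tried on simulated counts first. Intervals and floors cover counting error only. Symbols were found for 60481 of 60651 identifiers (99.7%), and 92 spike-in sequences, all at 0, were left out.

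Genes and lists were chosen with earlier results of these data known. Genes named are the set, other family genes, overlapping and tested neighbouring genes, called genes and the 3 most abundant of each list, and the 5 genes most like *SCN2A*. Some genes that this rule names are not reported here. Alternatives were RLE scaling, DESeq2 1.42.0, other filters, a replicate block, leaving out each library, and CPM in place of TPM. Canonical lengths (GENCODE 44) were added after the data were seen.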

Additional observations from a re-analysis of the deposited data

How the results depend on the processing

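The 6 log2 fold changes of the sodium channel genes were recomputed in 66 comparisons and moved by less than 1 SD between replicates in each. That SD included the library left out. With 3 libraries a group, leaving out 1 was nearly bound to move a value by less than that SD. Nothing is read from that outcome. The sign of the log2 fold change turned in 3 of the 66 comparisons, 2 for *SCN1A* and 1 for *SCN8A*. At the threshold of 0.05, *SCN2A* lost its call in 5, *SCN3A* gained one in 4 (DESeq2, adjusted p = 0.00079; no filter on low counts, 0.0136; the replicate block, 0.00585; without EtOH replicate 2, 0.0169) and *SCN9A* in 1. Over these comparisons, *SCN2A* ranged from 1.29 to 1.41, *SCN3A* from 0.88 to 1.04, *SCN3B* from 0.54 to 0.81, *SCN9A* from 0.28 to 0.85, *SCN8A* from −0.05 to 0.22 and *SCN1A* from −0.10 to 0.83. The adjusted p of *SCN2A* ranged from 7.0e-07 (DESeq2) to 0.247 (without Tet replicate 1). Of 329 comparisons of 30 other named genes, 290 kept direction and side of the threshold, 6 lost a call, 23 gained one and 10 turned direction.

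Across the table, where 33 genes were called higher and 20 lower, RLE scaling gave 27 and 13, DESeq2 282 and 203, no filter on low counts 185 and 117, and leaving out a library 0 to 361 and 0 to 331. In the chromosome 2 region the 1 call fell to 0 with RLE scaling and was 0 to 1 when a library was left out. In the partner list, with 0 calls, DESeq2 gave 3, no filter 1 and leaving out a library 0 to 1; the transport list gave 2, 1 and 0 to 1, and the regulators 3, 2 and 0 to 3. The cause was not tested.

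Replicate numbers are shared between the labels, and same-numbered libraries deviated together in part (correlations 0.0603, 0.51 and 0.219 for replicates 1 to 3). The labels do not say whether same-numbered libraries belong together, so the main fit did not pair them. What same-numbered libraries share was not tested. With a replicate block, 421 genes were called higher and 254 lower, 5 in the partner list, 3 in the transport list and 3 among regulators, and *SCN2A* had a log2 fold change of 1.37 (adjusted p = 0.00378).

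Directions that turned did so only where a library was left out, for genes that were never called. The leave-one-out ranges were −0.10 to 0.83 for *SCN1A*, −0.05 to 0.22 for *SCN8A*, −0.52 to 0.0081 for ENSG00000277998, −0.26 to 0.21 for ENSG00000232411, −0.27 to 0.053 for *TTC21B-AS1*, −0.34 to 0.19 for ENSG00000228222 and −0.14 to 0.39 for *REST*. Without *SCN1A* and *SCN9A*, whose exons overlap *SCN1A-AS1*, the *SCN2A* share was 4.77% in the EtOH-labelled libraries and 8.11% in the Tet-labelled ones. *SCN3A* and *SCN8A* stayed in that sum, though 8.43% and 5.55% of their exon bases also overlap antisense genes. With canonical lengths and all 6 alpha subunit genes, the *SCN2A* share was 5.48% and 9.57%. Of 21 pairs of detected sodium channel genes, 20 kept their order by CPM without length and by canonical length, and 18 to 20 in each library on its own. *SCN7A* and *SCN2B* were under the filter on low counts and were not tested.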
